A study of Mus musculus with 8 samples.

Results

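The vomeronasal type 2 receptor genes were taken as the autosomal protein-coding genes of the mouse mm10 build whose symbol is Vmn2r followed by a number, which gave 122 genes of 21896 protein-coding genes in all. Each gene was given the average score of the windows that its body covers, or that of the nearest window up to 50 kb away where it covers none. A value was obtained for 104 of the 122 genes, 91 of them from windows over the gene itself and 13 from the nearest window. The remaining 18 genes had no window near enough and are not described further.

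Replication timing was measured by Repli-seq in E14Tg2a, a male mouse embryonic stem cell line of 129/Ola background, with CTCF fused to an auxin-inducible degron. The treated group was kept for 2 days in 500 µM indole-3-acetic acid, an auxin, and the control group, which carries the same degron, received none. Each group has 2 profiles, and each profile joins libraries of the early and late S-phase cells sorted after a 2-hour BrdU pulse, so 8 libraries make 4 profiles. The score rises with earlier replication. The read depth and the log base of the score were not given in the sources used here. All values and differences are therefore in score units, and over all windows the scores have an SD of 2.1. The series has no degron-free cells given auxin, so the effect of auxin and that of CTCF loss cannot be told apart. The labels do not say whether the cells were a single clone or whether replicates were separate cultures, and the p-values therefore reflect the spread between 4 profiles, which may be technical. Expression was not measured. The pluripotency genes Pou5f1 and Nanog replicated early in the control cells, at 2.92 ± 0.40 and 2.77 ± 0.51 (SD, n = 2).

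Type 2 vomeronasal receptors are family C G protein-coupled receptors with a large extracellular ligand-binding domain. They are made by sensory neurons in the basal layer of the vomeronasal organ, where they detect peptide and protein pheromones and signal through Gnao1 and the channel Trpc2. Most such neurons make a member of the large subfamilies together with a broadly used receptor of the Vmn2r1 to Vmn2r7 group, and embryonic stem cells are not known to use these receptors. Most of the genes lie in tandem arrays that grew by duplication, so many neighbours are close copies of each other.

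When genes less than 1 Mb apart on a chromosome were joined, the 122 genes fell into 18 clusters on 8 chromosomes. There were 11 arrays of 3 or more genes, a pair on chromosome 14 (Vmn2r88 and Vmn2r89) and 6 single genes. The largest arrays were Vmn2r29 to Vmn2r52 on chromosome 7 (24 genes over 2963 kb) and Vmn2r90 to Vmn2r110 on chromosome 17 (22 genes over 2892 kb). The Vmn2r1 to Vmn2r7 group formed an array of its own on chromosome 3 (chr3:64078172-64719602).

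The arrays were unevenly covered by scored windows, and with it the basis of each gene's value differed. Across the 11 arrays 1102 of 2241 positions of the 6-kb grid held a score (49.2%), against 76.3% of positions over the autosomes. No window lay over 31 Vmn2r genes (25.4%), compared with 40% of Vmn1r genes, 20.5% of olfactory receptor genes and 8.61% of all protein-coding genes. The sparsest array was Vmn2r29 to Vmn2r52, in which 14 of 495 grid positions held a score. No position was scored over 2580 kb, from the end of a window at chr7:7428000 to the start of the next at chr7:10008000, and only 8 of its 24 genes received a value, none from more than 1 window. The arrays Vmn2r65 to Vmn2r79 on chromosome 7 (39.3% of positions) and Vmn2r90 to Vmn2r110 (43.7%) were also thin. At the other end, Vmn2r84 to Vmn2r87 on chromosome 10 was covered completely and Vmn2r53 to Vmn2r56 on chromosome 7 to 92.6%. Vmn2r49 and Vmn2r50 took their value from the same nearest window, and Vmn2r2 lies inside the span of Vmn2r1 and shares its windows.

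**Figure D1:**
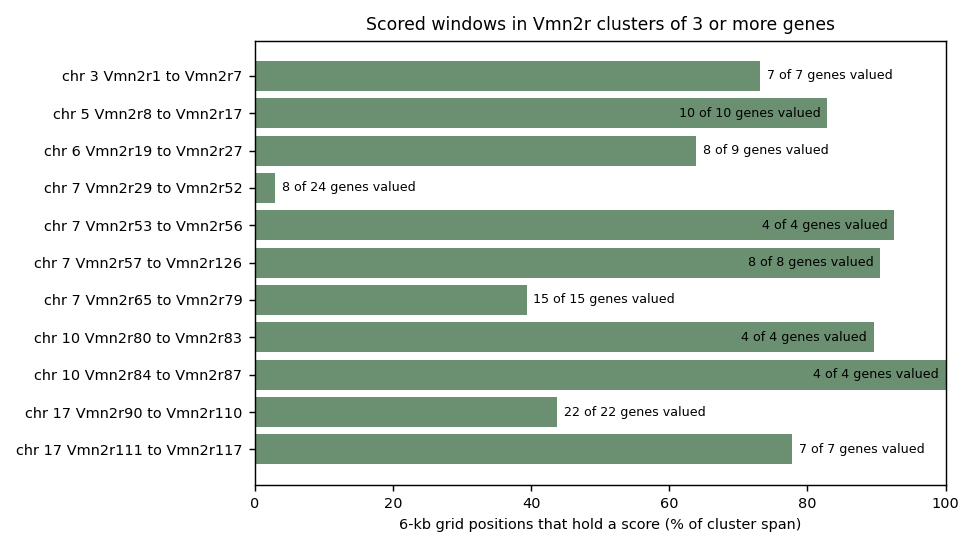
Bars give the share of 6-kb grid positions that hold a score within each Vmn2r array of 3 or more genes (percent, x axis), and the text at each bar gives how many of its genes received a value. The chromosome 7 array Vmn2r29 to Vmn2r52 stands at 2.83%, and only 8 of its 24 genes have a value.

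The promoters show how alike the copies are in the array that has almost no windows. RefSeq promoter sequences (GRCm38.p6, the coordinates of mm10) were matched by symbol for 115 of the 122 genes, and each was compared with the most similar other Vmn2r promoter over the 250 bases before the start. Median identity to the closest relative was 95.6% for the 27 genes without a window over the gene, 90.2% for the 30 with 1 or 2 windows and 90.6% for the 58 with 3 or more. Most of those 27 genes belong to Vmn2r29 to Vmn2r52, and the higher median mainly reflects that array. Outside it identity was 99.2% at Vmn2r7, 95.2% at Vmn2r98, 94% at Vmn2r72 and 91.6% at Vmn2r71. It was 88.4% at Vmn2r70, 88% at Vmn2r103, 86.8% at Vmn2r74 and 85.6% at Vmn2r73. By array the median identity was 98.8% in Vmn2r29 to Vmn2r52 and 79.6% in Vmn2r1 to Vmn2r7. Vmn2r31 (chr7:7399628-7399777, minus strand) and Vmn2r38 (chr7:9097766-9097915, minus strand) lie 1.694 Mb apart in the thin array, and the 150 bases before their starts are the same throughout. They are shown because Vmn2r31 received 1 window and Vmn2r38 none.
Vmn2r31: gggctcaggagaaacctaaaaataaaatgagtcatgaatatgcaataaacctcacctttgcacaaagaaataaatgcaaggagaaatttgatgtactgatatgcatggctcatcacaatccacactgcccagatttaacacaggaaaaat
Vmn2r38: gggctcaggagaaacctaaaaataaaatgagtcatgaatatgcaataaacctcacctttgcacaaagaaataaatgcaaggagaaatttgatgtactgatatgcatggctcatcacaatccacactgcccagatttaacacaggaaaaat
Close copies are not always without windows, however. In the chromosome 17 array Vmn2r111 to Vmn2r117 the median identity was also 98.8%, and 77.7% of grid positions held a score. Whether reads that match several copies or differences between the 129/Ola genome and the C57BL/6J reference play a part in the missing windows was not tested.

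Most Vmn2r genes replicated late in control cells. The median over the 104 genes was -2.03 and -1.96 in the 2 control profiles, whereas the median over all 21074 genes with a value was 1.89 on the mean of the controls. Counted by that mean, 79 Vmn2r genes (76.0%) were late, below -0.5, compared with 23.8% of all genes. A further 9 lay between -0.5 and 0.5, and 16 were early, above 0.5. The other large chemoreceptor families had similar medians, at -1.79 for Vmn1r and -2.06 for olfactory receptors, while the 15 trace amine receptor genes lay at -0.42. The Vmn2r median rests partly on thinly covered genes. Over the 60 genes with 3 or more windows it was -1.09.

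**Figure D2:**
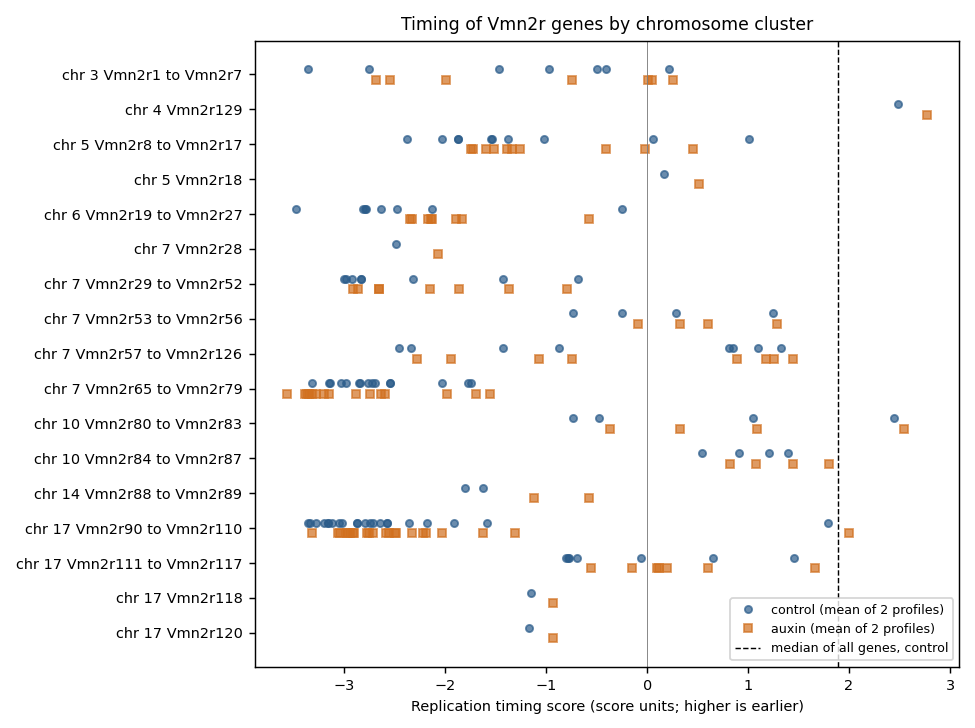
Each point is a Vmn2r gene, plotted at its mean timing score (score units, higher is earlier) over the 2 control profiles (circles) or the 2 auxin profiles (squares), in rows by chromosome cluster. Most genes lie left of 0, far from the dashed line at the control median of all genes (1.89), and right of that line in control cells lie only Vmn2r83 on chromosome 10 and Vmn2r129 on chromosome 4.

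The arrays differed widely from each other. The latest was Vmn2r65 to Vmn2r79 on chromosome 7, with a mean over its genes of -2.68 ± 0.013 in control cells (SD, n = 2 profiles), followed by Vmn2r90 to Vmn2r110 on chromosome 17 at -2.58 ± 0.14, whose control range overlapped it. Vmn2r19 to Vmn2r27 on chromosome 6 (-2.42 ± 0.052) and Vmn2r29 to Vmn2r52 on chromosome 7 (-2.37 ± 0.36) came next and overlapped each other. No other neighbours in the order overlapped in their control profiles. The mean of Vmn2r29 to Vmn2r52 joins 4 genes before its stretch without windows, at -1.84, and 4 after it, at -2.91. The Vmn2r1 to Vmn2r7 array lay at -1.32 ± 0.042 and the chromosome 5 array Vmn2r8 to Vmn2r17 at -1.26 ± 0.025. Vmn2r57 to Vmn2r126 on chromosome 7 (-0.38 ± 0.20), Vmn2r111 to Vmn2r117 on chromosome 17 (-0.14 ± 0.12) and Vmn2r53 to Vmn2r56 on chromosome 7 (0.14 ± 0.18) had means between the late and early cut-offs. Only the chromosome 10 arrays were early on average, Vmn2r80 to Vmn2r83 at 0.57 ± 0.013 and Vmn2r84 to Vmn2r87 at 1.01 ± 0.062.

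Of the single genes, Vmn2r129 near the end of chromosome 4 (chr4:156331103-156339499) was the earliest Vmn2r gene measured, at 1.96 and 3.01 in the control profiles and 2.93 and 2.62 in the auxin profiles. It rests on 2 windows, and its control profiles lay further apart than the group means. Vmn2r28, on chromosome 7, was late at -2.48 ± 0.18, and Vmn2r118 and Vmn2r120 on chromosome 17 lay at -1.15 ± 0.084 and -1.17 ± 0.0022 (SD, n = 2). Vmn2r18, on chromosome 5, was at 0.17 ± 0.19.

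Several arrays held early and late genes within 1 Mb of each other. On chromosome 17 Vmn2r90, the first gene of its array, scored 1.59 and 1.99 in the controls, and Vmn2r124, 342.8 kb further on, scored -2.16 and -2.19, a drop of 3.97. All 21 other genes of that array were late, down to -3.36 ± 0.35 at Vmn2r97. On chromosome 3 the broadly used receptors spanned nearly as much. Vmn2r3 scored 0.12 and 0.33, Vmn2r4 -0.99 and -0.97, Vmn2r5 -1.69 and -1.25, Vmn2r6 -3.03 and -2.48, and Vmn2r7 -2.87 and -3.84. The scores thus went down along the chromosome, by 3.58 over the 431.9 kb from Vmn2r3 to Vmn2r7, although Vmn2r7 has only a nearest window and Vmn2r5 a single window. Vmn2r1 (-0.48 and -0.33) and Vmn2r2 (-0.51 and -0.49), at the near end of the array, lay between Vmn2r3 and Vmn2r4.

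The array Vmn2r57 to Vmn2r126 had early ends and a late centre, and none of its 8 genes lay between -0.5 and 0.5. Its control means were 0.81 at Vmn2r57, -0.88 at Vmn2r58, -2.46 at Vmn2r59, -2.33 at Vmn2r60 and -1.43 at Vmn2r61, and then 1.33 at Vmn2r62, 1.10 at Vmn2r63 and 0.85 at Vmn2r126. Slopes also ran through the other mixed arrays. Vmn2r8, at the edge of the chromosome 5 array, scored 1.06 and 0.95, and Vmn2r10, 198.0 kb away, scored -1.48 and -1.59. On chromosome 10 the order ran the other way, from Vmn2r80 at -0.79 and -0.69 to Vmn2r83 at 2.51 and 2.39. On chromosome 17 Vmn2r112 scored -0.65 and -0.96, and Vmn2r117, 859.5 kb away, scored 1.50 and 1.41. Vmn2r116, the receptor for the male tear peptide ESP1, lies beside Vmn2r117 and scored 0.33 and 0.96. Vmn2r26, a receptor for peptides that bind major histocompatibility molecules, lies in the late chromosome 6 array and scored -2.06 and -2.20.

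**Figure D3:**
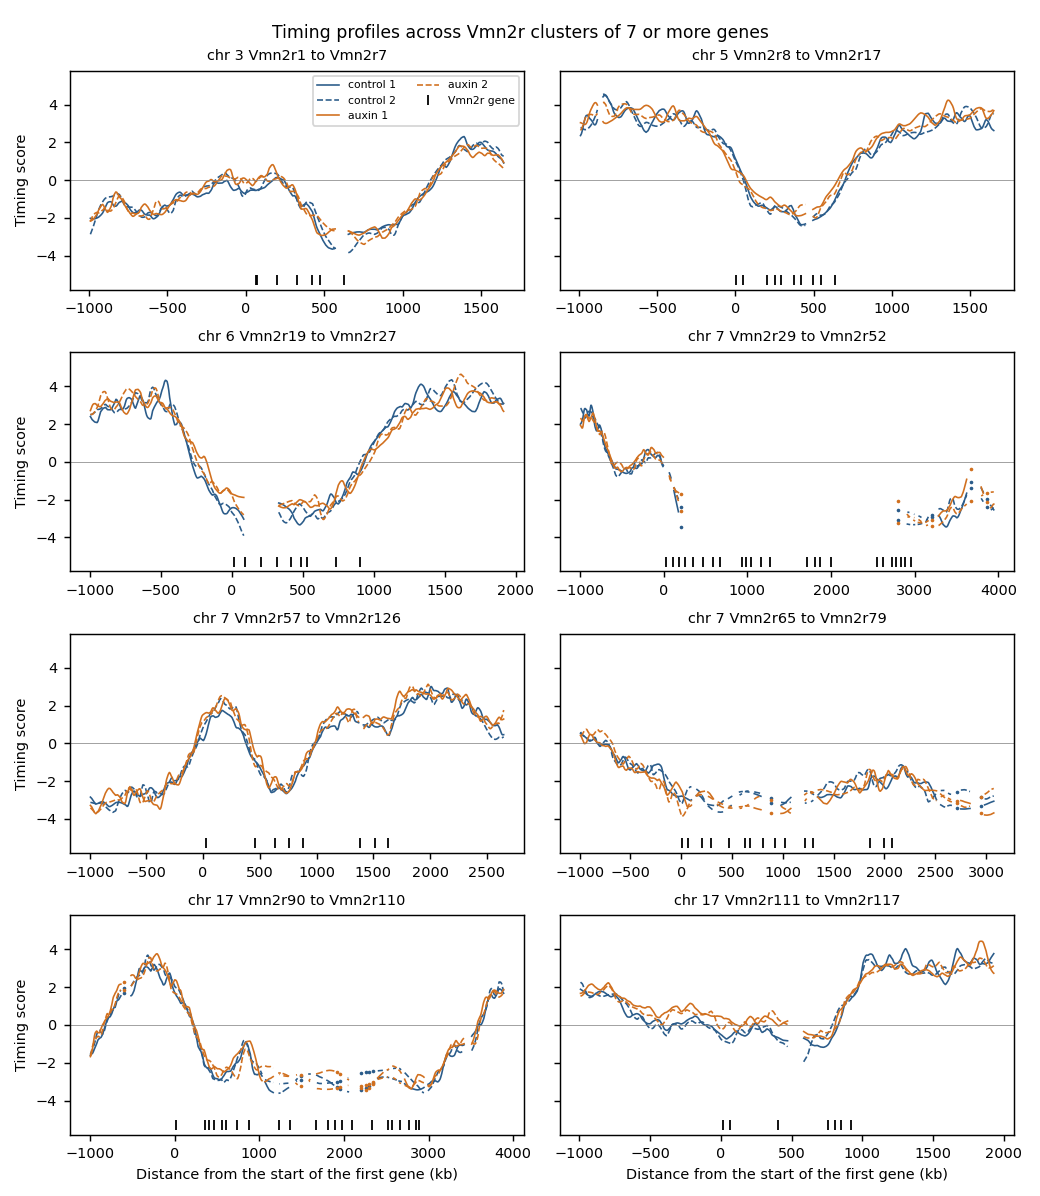
Timing score (score units, higher is earlier) of the 2 control and 2 auxin profiles along the 8 Vmn2r arrays of 7 or more genes, against the distance in kb from the start of the first gene; ticks mark Vmn2r genes and breaks in the lines mark missing windows. The chromosome 5 array fills a trough between early flanks, the chromosome 6 array one between a middle (0.14) and an early flank (2.33), Vmn2r90 to Vmn2r110 falls from an early flank into a long late stretch, and Vmn2r29 to Vmn2r52 is almost without data.

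The surroundings of the arrays were of several kinds. Taken over the windows within 500 kb on either side, 8 of the 11 arrays were later than their flanks in control cells, with a median step of -0.62. For Vmn2r29 to Vmn2r52 the step of -1.15 rests on only 14 of 495 grid positions, at the ends of the array. The chromosome 5 array had early flanks of 2.78 and 1.55 and a step of -3.49, and the chromosome 6 array had flanks of 0.14 and 2.33 and a step of -3.40. Other arrays lay between an early and a late neighbour. Vmn2r53 to Vmn2r56 had flanks of -2.62 and 2.62 and a step of 0.016, and Vmn2r80 to Vmn2r83 had flanks of -1.05 and 3.29. Vmn2r90 to Vmn2r110 had an early flank of 2.72 on one side and a late flank of -2.09 on the other. Vmn2r65 to Vmn2r79 was late among late flanks (-1.66 and -1.99). The width of the flank mattered, and with 1 Mb on either side the median step was -1.55. Some steps changed sign with it. From 500 kb to 1 Mb the step went from 0.40 to -0.18 in Vmn2r1 to Vmn2r7 and from -0.23 to 0.15 in Vmn2r57 to Vmn2r126. In Vmn2r53 to Vmn2r56 it was -0.35 with 250 kb.

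Setting auxin beside control cells asks how these arrays replicate when cells with the CTCF degron are given auxin. The Vmn2r genes lay slightly earlier with auxin as a group, and no single gene passed the test. The median difference, auxin minus control, was 0.21 score units over the 104 genes and -0.00043 over all 21074 genes. The Vmn2r median was -1.72 and -1.81 in the auxin profiles, both above the control values of -2.03 and -1.96. With auxin 82 of the 104 genes had the earlier mean (78.8%), against 49.9% of all genes. In 45 genes both auxin profiles were earlier than both control profiles (43.3%, against 23.9% of all genes), and in 6 both were later (5.77%, against 25.9%). Among the 60 genes with 3 or more windows these counts were 31 (51.7%, against 24.1%) and 1 (1.67%, against 29.4%). The genes of an array share a stretch of chromosome and in part their windows, so they are not independent of each other.

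**Figure D4:**
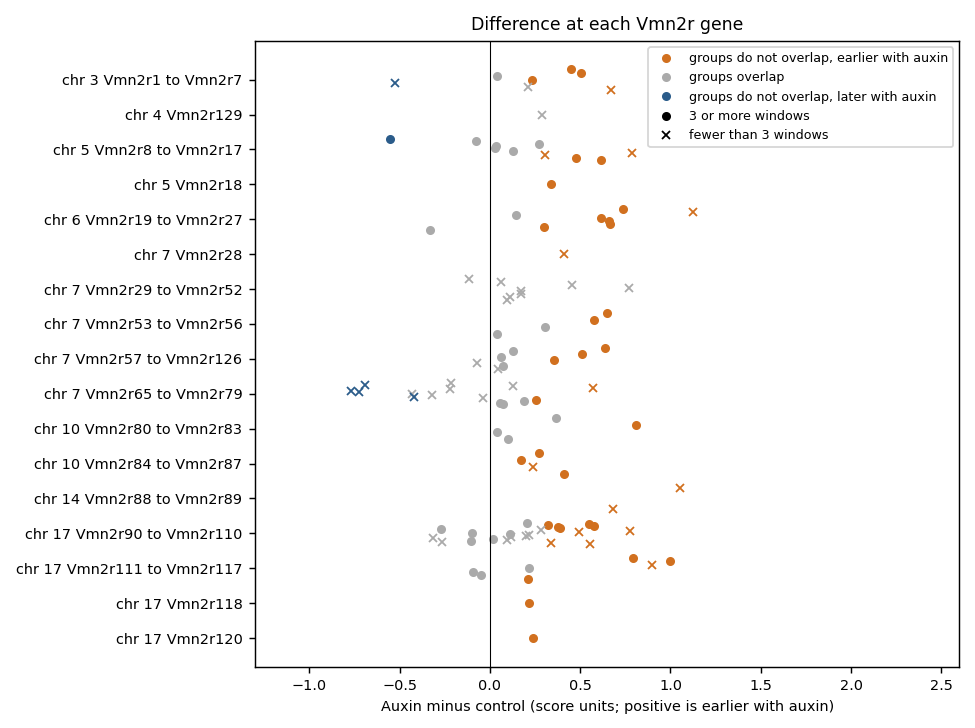
Auxin minus control difference of each Vmn2r gene (score units, positive is earlier with auxin), in rows by chromosome cluster; orange marks genes whose auxin profiles are both earlier than both controls, blue both later, grey overlapping groups, and crosses genes with fewer than 3 windows. Of the 104 genes 82 lie right of 0, and 4 of the 6 blue genes belong to Vmn2r65 to Vmn2r79.

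Fitted with limma over all 21074 genes, 0 Vmn2r genes passed a Benjamini-Hochberg adjusted p of 0.05 in either direction, as did 0% of all genes, and the smallest adjusted p among the members was 0.172. At an unadjusted p under 0.05 there were 26 (25%), against 17.1% of all genes. When limma's variance was allowed to follow the mean and was estimated robustly, 4 Vmn2r genes passed as earlier (3.85%, against 2.01% of all genes) and 0 as later (against 3.3%). These were Vmn2r81, Vmn2r88, Vmn2r112 and Vmn2r113. With that variance and at least 3 windows, a combination chosen after seeing the data, 7 of 60 passed as earlier (11.7%, against 3.81%) and 1 as later (1.67%, against 6.93%). The 7 were Vmn2r17, Vmn2r19, Vmn2r53, Vmn2r54, Vmn2r81, Vmn2r111 and Vmn2r112, and the later gene was Vmn2r8.

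The genes of the chromosome 17 array Vmn2r111 to Vmn2r117 split into those that lay earlier with auxin and those that did not. Vmn2r112 (chr17:22601148-22619133, 4 windows) scored -0.65 and -0.96 in the controls and 0.27 and 0.12 with auxin, a difference of 1.00 (limma adjusted p = 0.172, or 0.0155 with the trended, robust variance). Vmn2r113 (2 windows) scored -0.68 and -0.88 against -0.04 and 0.28, a difference of 0.90 (limma adjusted p = 0.173, or 0.0211). Vmn2r111 scored -0.58 and -0.81 against 0.39 and -0.19, a difference of 0.79. In these 3 genes the groups did not overlap. In Vmn2r114, Vmn2r115 and Vmn2r116 the groups overlapped, with differences of 0.22, -0.09 and -0.05. The ESP1 receptor gene Vmn2r116 scored 0.33 and 0.96 in the controls and 0.81 and 0.39 with auxin. At Vmn2r117, the earliest gene of the array, the controls of 1.50 and 1.41 lay just below the auxin values of 1.67 and 1.66.

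The 150 bases before the starts of the 3 genes with the largest differences in that array are shown to let their sequences be compared. They were aligned to Vmn2r111 (chr17:22573274-22573423, minus strand) with gaps allowed, and capitals mark bases with no identical partner there. Bases of Vmn2r111 that lack a partner are not marked. In Vmn2r112 (chr17:22600998-22601147, plus strand) 3 of the 150 bases are so marked (98% identity), and in Vmn2r113 (chr17:22943034-22943183, plus strand) 25 are (83.3%).
Vmn2r111: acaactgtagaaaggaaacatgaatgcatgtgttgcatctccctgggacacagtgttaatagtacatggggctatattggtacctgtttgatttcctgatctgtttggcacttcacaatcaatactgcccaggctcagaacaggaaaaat
Vmn2r112: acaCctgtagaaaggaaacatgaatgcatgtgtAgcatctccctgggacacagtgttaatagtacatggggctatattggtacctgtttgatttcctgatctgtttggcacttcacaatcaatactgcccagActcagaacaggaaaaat
Vmn2r113: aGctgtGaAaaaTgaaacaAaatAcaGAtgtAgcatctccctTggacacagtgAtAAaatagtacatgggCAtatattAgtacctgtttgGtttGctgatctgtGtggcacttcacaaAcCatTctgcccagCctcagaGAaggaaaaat
Whether promoter likeness goes with the differences in this array was not tested. Over the 250 bases before the start the closest relative of Vmn2r112 was Vmn2r116 (98.8%), whose groups overlapped, and Vmn2r113 had the lowest best match of the array (85.6%, to Vmn2r117). The starts of Vmn2r111 and Vmn2r112 face away from each other and their promoters are neighbours, whereas Vmn2r113 lies further along the chromosome.

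The same stretch held the smallest adjusted p when the arrays were read as 50-kb bins with at least 3 windows. In the limma fit over 42710 bins, 0 of 174 bins overlapping Vmn2r clusters passed in either direction, while 0.637% of all bins passed as earlier and 1.02% as later. At an unadjusted p under 0.05 there were 38 (21.8%, against 21.7% of all bins). The smallest adjusted p was 0.0534, in the bin over Vmn2r113 (chr17:22950001-23000000), where the controls of -0.74 and -0.92 faced auxin values of 0.02 and 0.21. With the trended, robust variance 18 of the 174 bins passed as earlier (against 5.17% of all bins) and 1 as later (0.575%, against 5.66%). Of these 18, 7 lay in Vmn2r111 to Vmn2r117, which has 17 bins, and 4 in the chromosome 5 array. The counts depended on the bins admitted, and with at least 6 windows 5 of 133 bins passed as earlier in the limma fit (3.76%, against 3.38%).

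Differences elsewhere were mostly smaller or less well covered. Vmn2r88 on chromosome 14 (chr14:51411001-51419527, 2 windows) scored -1.78 and -1.47 in the controls and -0.39 and -0.76 with auxin, a difference of 1.05 (limma adjusted p = 0.172, or 0.0198 with the trended, robust variance). Its neighbour Vmn2r89 differed by 0.68 with no overlap. On chromosome 10 Vmn2r81 (9 windows) scored -0.55 and -0.41 against 0.44 and 0.22, a difference of 0.81 (limma adjusted p = 0.176, or 0.0248). The groups of its neighbours Vmn2r80, Vmn2r82 and Vmn2r83 overlapped. The largest difference of any Vmn2r gene, 1.13 at Vmn2r20 on chromosome 6, rests on 1 window, and the controls of -3.04 and -3.91 there lay nearly as far apart as the groups did.

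In the chromosome 6 array most genes lay earlier with auxin, and the gene at its end did not. Vmn2r19 scored -2.44 and -2.82 in the controls and -1.75 and -2.04 with auxin (difference 0.74), and the groups of Vmn2r23, Vmn2r24, Vmn2r25 and Vmn2r26 were likewise apart, by 0.61, 0.66, 0.67 and 0.30. Vmn2r27, the earliest gene of that array, scored -0.50 and 0.00 against -0.47 and -0.69, and the groups overlapped. Over the 8 genes with a value the array mean went from -2.38 and -2.46 to -1.84 and -2.02, a difference of 0.49. On chromosome 5 the ends of the array differed in opposite directions. Vmn2r8 scored 1.06 and 0.95 against 0.51 and 0.40 (difference -0.56, limma adjusted p = 0.247), and Vmn2r17, at the other end, -0.97 and -1.07 against -0.21 and -0.60 (difference 0.62, limma adjusted p = 0.248). The 2 genes thus lay closer to each other with auxin than without it.

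The array Vmn2r65 to Vmn2r79 was the exception among the 11, with a mean difference of -0.17, from -2.69 and -2.67 to -2.85 and -2.84. Among its genes that direction rests on those with 0 to 2 windows. The 4 genes with 3 or more windows all had the earlier mean with auxin, by 0.25 at Vmn2r76, 0.19 at Vmn2r77, 0.05 at Vmn2r78 and 0.07 at Vmn2r79. The stretch between the genes counts too. Of the array's 25 bins with at least 3 windows, 10 had the earlier mean, and the median difference was -0.075. Over all its windows the mean was -2.53 and -2.31 in the controls and -2.52 in both auxin profiles. The array held 4 of the 6 genes in which both auxin profiles were later, and 2 in which both were earlier (Vmn2r68 and Vmn2r76). Those 4 are out of 15 genes here, a share near the 25.9% of all genes that were later in both. For the earlier direction the share of all genes was 23.9%. Vmn2r70 scored -2.55 in both controls and -3.30 and -3.33 with auxin, a difference of -0.77 (limma adjusted p = 0.175). Vmn2r70, Vmn2r71 and Vmn2r74 have no window of their own, and Vmn2r66 has 2. The other later genes were Vmn2r8 and, on chromosome 3, Vmn2r5 (1 window). The broadly used receptors of chromosome 3 otherwise lay earlier or overlapped. Vmn2r1, with 25 windows the best covered of all, scored -0.48 and -0.33 against 0.05 and 0.04 (difference 0.45, limma adjusted p = 0.312).

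Mean differences of the other 10 arrays ran from 0.20 on chromosome 5 to 0.49 on chromosome 6. Several of them depended on single profiles. In Vmn2r29 to Vmn2r52 the difference of 0.22 changed sign, to -0.039 without the first control profile and -0.021 without the first auxin profile, and was 0.47 and 0.45 without the second of each. In Vmn2r90 to Vmn2r110 the difference of 0.21 became 0.11 without the first control, 0.014 without the first auxin and 0.40 without the second auxin profile. The sign of that array's difference was kept in each case. In Vmn2r57 to Vmn2r126 the difference of 0.22 became 0.072 and 0.089 without the first control or auxin profile and 0.36 and 0.34 without the second. Without the first auxin profile it was 0.10 in the chromosome 5 array, in place of 0.20. In Vmn2r80 to Vmn2r83 the difference of 0.33 was 0.16 without that profile. The array differences in Vmn2r111 to Vmn2r117 (0.34 to 0.51) and on chromosome 6 (0.40 to 0.58) stayed within 1.5 times of their full value when any 1 profile was left out. The same held for Vmn2r1 to Vmn2r7, Vmn2r53 to Vmn2r56, Vmn2r84 to Vmn2r87 and, in the later direction, Vmn2r65 to Vmn2r79.

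The positive differences of the Vmn2r genes were not limited to 1 timing class. Among genes with a 4-profile mean below -2, the median difference was 0.18 for 49 Vmn2r genes and -0.018 for 2411 other genes. Between -2 and -0.5 it was 0.24 for 25 Vmn2r genes and -0.046 for the others. Between -0.5 and 0.5 it was 0.48 for 14 Vmn2r genes and -0.021 for the others. Above 0.5 it was 0.14 for 16 Vmn2r genes and 0.011 for the others. The other chemoreceptor families also had positive medians, of 0.12 for Vmn1r, 0.11 for olfactory receptor and 0.16 for trace amine receptor genes, and the difference between families was not tested. Among 160 Vmn1r genes 30% lay earlier in both auxin profiles, and among 1098 olfactory receptor genes 30.7% did.

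The spread between the control profiles was wider in thinly covered genes, and that between the auxin profiles did not follow coverage in the same way. The median gap between the 2 control profiles was 0.55 for the 13 Vmn2r genes valued by the nearest window, 0.41 for the 31 with 1 or 2 windows and 0.21 for the 60 with 3 or more. Between the auxin profiles these gaps were 0.18, 0.32 and 0.20. Over other genes the control gaps were 0.42, 0.31 and 0.24. The median difference with auxin was 0.11, 0.21 and 0.24 in the same order for Vmn2r genes. No Vmn2r gene lies in a region of the authors' deposited tables of later and earlier regions.

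The letters of a CTCF core were rare in Vmn2r promoters, at a share near that of all protein-coding promoters. A CTCF core motif (CCA, any 2 bases, AG, any 2 bases, GGC), searched on both strands from 250 bases before to 50 after the start, was found in 2 of 115 Vmn2r promoters (1.74%) and in 408 of 17491 protein-coding promoters (2.33%). The median GC content of these promoters was 38% for Vmn2r genes and 56.3% for protein-coding genes. Matches were in Vmn2r29 and Vmn2r109. Among the 115, the Vmn2r29 promoter had the highest GC content (62.3%) and the lowest identity to its closest relative (60.8%), so it is not typical. Its match, with the core in capitals, is shown from the minus strand of chr7:7278482-7278539, and the first base of the core lies at -228 from the start.
Vmn2r29: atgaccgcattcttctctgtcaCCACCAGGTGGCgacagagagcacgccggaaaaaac
At Vmn2r29 the controls of -0.59 and -0.77 and the auxin values of -0.76 and -0.83 overlapped, from 1 window. At Vmn2r109 the controls of -3.42 and -3.14 lay below the auxin values of -2.86 and -3.03, from 2 windows. A match is a description of letters and was not tested as a bound site.

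Lists of genes related to these receptors or their neurons, and of other receptors, were also examined. Each list gave 0 calls in the limma fit, in which 0% of all 21074 genes passed, so these counts set no list apart. The 10 co-receptor genes, which encode the H2-M1, H2-M9, H2-M10 and H2-M11 class I molecules of type 2 receptor neurons and B2m, had a control median of -0.03, with 5 earlier and 5 later. H2-M10.5 scored 2.06 and 1.90 in the controls and 1.07 and 1.28 with auxin (difference -0.80, limma adjusted p = 0.177, or 0.0288 with the trended, robust variance). With that variance 3.3% of all genes passed as later. The 10 transduction genes were mostly early, with a control median of 2.65. Trpc2, the channel that carries the sensory current, scored 3.19 ± 0.68, and Gnao1, the G protein subunit of type 2 receptor neurons, scored 0.26 ± 0.18 (SD, n = 2).

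The ligand genes had late medians in control cells, -2.01 for Esp and -1.75 for Mup genes. Of the 14 measured Esp genes, which encode exocrine gland peptides, 11 had the later mean with auxin, against 50.1% of all genes. Their median difference was -0.34. They share a stretch of chromosome 17 (chr17:38416474-40731782) and some have no window of their own, so they are not independent of each other. Esp1, whose product is the ligand of Vmn2r116, scored -1.16 and -0.61 in the controls and -1.75 and -1.66 with auxin (difference -0.83, limma adjusted p = 0.199). The receptor gene Vmn2r116 itself differed by -0.05 with overlapping groups. Esp8 was the only gene of this list to pass with the trended, robust variance (difference -0.78, limma adjusted p = 0.0381 in that fit). There 3.3% of all genes passed as later. Of the 14 measured Mup genes, whose major urinary proteins are also sensed by type 2 neurons, 10 had the earlier mean, against 49.9% of all genes. Their median difference was 0.16, and they too share a stretch (chr4:59956804-62150841). Mup2 was the only one to pass with the trended, robust variance, as earlier (difference 1.26, limma adjusted p = 0.0146 in that fit), and it has no window of its own. In that fit 2.01% of all genes passed as earlier. Median differences in the other lists were 0.10 for 7 formyl peptide receptor genes, 0.033 for 13 other family C receptor genes and -0.12 for 5 lineage factor genes.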

How the data were processed

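Replication timing was measured in 8 Repli-seq libraries, joined by the authors into 4 profiles. The submitters' processing notes name Bowtie2, SAMtools, bedtools and mm10; their versions and settings and the score's formula were not given in the sources used here. The authors deposited a timing score at 316864 windows and named it as quantile normalized. Sorted, the 4 columns are identical, so a genome-wide shift cannot be seen. A window was taken to start at its listed position and span 6 kb. The files give no read counts, so depth is unknown and no interval was set on it. The labels give no batch.

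Genes and coordinates came from RefSeq (GRCm38.p6). Gene scores and 50-kb bins with at least 3 windows were compared by limma 3.58.1 (R 4.3.3; lmFit and eBayes, treatment only, 2 residual degrees of freedom), adjusted over all genes or bins by Benjamini-Hochberg. With 2 against 2 profiles an exact two-sided permutation test cannot go below 0.333, so none was used. SDs are over 2 profiles. Alternatives were the variance model, replicate block, window filters, value of a gene, flank and cluster gap, and leaving out each profile. The trended, robust fit was an alternative, not the main test.

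Members and lists were chosen with earlier results of these data known. Genes named by rule were the earliest and latest of each array, the largest differences, Vmn2r1 to Vmn2r7, Vmn2r26, Vmn2r116 and every gene passing in any fit; other genes were named after their values were seen. Protein sequences were not used here.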

Additional observations from a re-analysis of the deposited data

How the results depend on the processing

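In the gene fit the count of Vmn2r genes that passed was 0 with the replicate block, at least 3 windows, median windows, 10 kb added on each side or extreme windows removed, and 0 to 0 when a profile was left out; the trended, robust variance gave 4 and, with at least 3 windows, 8. In the bin fit the count of 0 became 19 with the trended, robust variance, 6 with the replicate block (all earlier, against 2.5% of all bins) and 5 with at least 6 windows; over all bins it was 0, and 0 to 0 without a profile. Replicates share only a number: deviations of same-numbered profiles correlated at 0.10 over genes, 0.038 over bins and -0.060 over Vmn2r genes. The median difference of 0.21 ranged from 0.16 to 0.31 when a profile was left out, with 65 to 86 genes earlier. The control median of -1.97 was -1.09 with at least 3 windows and -2.03 to -1.96 without a profile. The median flank step of -0.62 was -1.55 with flanks of 1 Mb and -0.72 to -0.58 without a profile. Of genes later in both auxin profiles, 6 became 1 with at least 3 windows. With members joined up to 500 kb or 2 Mb there were 13 and 10 arrays in place of 11.

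Leaving out a profile changed the sign of 17 of 160 differences, in 11 of 40 named genes. The range was -0.086 to 0.81 for Vmn2r80, -0.14 to 0.55 for Vmn2r90, -0.14 to 0.21 for Vmn2r3, -0.22 to 0.41 for Vmn2r52, -0.053 to 0.14 for Vmn2r56 and -0.31 to 0.16 for Vmn2r62. It was -0.057 to 0.43 for Vmn2r77, -0.91 to 0.37 for Vmn2r95, -0.43 to 0.22 for Vmn2r107, -0.17 to 0.59 for Vmn2r6 and -0.36 to 0.27 for Vmn2r116. For the array Vmn2r29 to Vmn2r52 it was -0.039 to 0.47. Under the other settings 1 of 252 changed sign, Vmn2r29, at 0.074 with 10 kb added. The cause of these changes was not tested. Limits are the 2 profiles per group, the unknown depth and the missing windows.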
